A study of Mus musculus with 40 samples.

Results

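The comparison described here sets both infused peptides, 7aaRGD and 7aaRAE, against vehicle in CD11b+ cells sorted from U87-MG gliomas. It takes in 9 of the 40 samples of the series. The members were chosen by the treatment named above each column of the deposited U87-MG table, which gave 6 peptide samples (3 of 7aaRGD and 3 of 7aaRAE) and 3 vehicle samples. All 9 came from male Athymic Nude-Foxn1nu mice aged 10 to 12 weeks, an outbred stock that lacks a thymus and therefore nearly all T cells. U87-MG, an established human glioblastoma line, had been implanted into the right striatum of every animal. An osmotic pump then infused the tumor with water (vehicle), 7aaRGD or 7aaRAE, with both peptides at the same concentration, and the cells were sorted at 21 days post implantation (DPI). Every sample pooled the cells of 2 animals, so differences between single mice are not visible. Nothing in the labels ties a column to a numbered sample of its group, and the numbers 1 to 3 used below only name the columns in the order in which the table holds them.

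CD11b, the product of Itgam, is carried by microglia, by monocytes and macrophages, by neutrophils and by mature natural killer (NK) cells. Integrins on these cells recognise the arginine-glycine-aspartate (RGD) motif of extracellular proteins such as osteopontin, the product of Spp1. 7aaRGD is a short synthetic peptide that carries this motif. 7aaRAE is its control, in which alanine and glutamate take the places of glycine and aspartate, and it lacks the integrin-binding motif. The pooled contrast, the mean of the 2 peptide groups minus vehicle, asks which changes are common to both peptides, whether or not a peptide carries the motif.

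Expression was given as RPKM, a read count divided by the length of the gene and by the size of the library, and was compared on the log2(RPKM + 1) scale. Every log2 fold change below is a difference on that scale, which understates the change of genes with low values. No read numbers came with the table, and the sequencing depth of the libraries is unknown. limma was run over 9659 protein-coding genes whose average over the 9 samples was 1 RPKM or more, with Benjamini-Hochberg adjustment of the p-values. Between 9544 and 9687 protein-coding genes reached 1 RPKM in each library. The labels give the cell type of these samples as U-87 MG human glioblastoma, whereas the values are for mouse genes and held microglial genes at high levels. Cx3cr1, the fractalkine receptor gene highly expressed in microglia, lay between 916.1 and 1674 RPKM in every library, while the T cell gene Cd3g was listed at 0 in all 9.

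Before any contrast, 2 libraries stood apart from the others. The first principal component held 49.9% of the variance, and on it 7aaRGD library 2 scored 22.8 and 7aaRAE library 2 scored 27.5, whereas the other 7 lay between −15.5 and 1.81. No vehicle library had such a score, so counts and medians of lists that moved by over 1.5 times without these 2 libraries are given both ways. The libraries differed in a further way that crossed the groups. In 1 library of each group, the one numbered 3 in every case, between 3.61% and 4.32% of the values lay under the constant that the authors had added. The other 6 libraries had 7.77% to 8.78%.

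**Figure D1:**
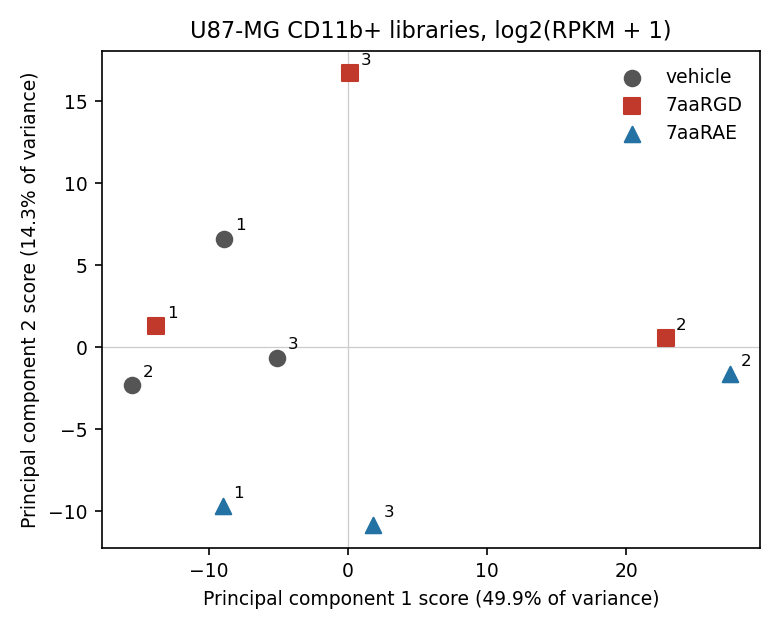
Scores of the 9 U87-MG libraries on the first 2 principal components of log2(RPKM + 1), with 49.9% and 14.3% of the variance. Circles are vehicle, squares 7aaRGD and triangles 7aaRAE, and the numbers name the columns. 7aaRGD 2 and 7aaRAE 2 lie to the right of the other 7 libraries.

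Il15ra was the only gene that passed the threshold in the pooled contrast. It encodes the alpha chain of the interleukin-15 receptor, which presents interleukin-15 to NK cells and other lymphocytes. Its level was 1.93, 1.63 and 1.77 RPKM in the vehicle libraries, 2.68, 3.41 and 2.66 in the 7aaRGD libraries, and 5.50, 6.50 and 5.89 in the 7aaRAE libraries. All 6 peptide libraries lay above all 3 vehicle libraries, and the 7aaRAE libraries lay above the 7aaRGD libraries. The pooled log2 fold change was 0.91 (SE 0.088), with a limma adjusted p of 0.0246. An exact permutation test over the 9 samples gave a two-sided, unadjusted p of 0.0238, where 84 splits allow none under 0.0119. It was run only on genes already chosen, so it is no second test of the call. The 1 gene called higher was 0.0104% of the genes tested, and no gene was called lower (0%). The call rested on several libraries at once: it held in 3 of the 9 fits that each left out 1 library, those without 7aaRGD 2, 7aaRGD 3 or 7aaRAE 2, and it was lost with a limma adjusted p of 0.101 when a term for the share of values under the constant was added. It was also lost with 1 mean fitted for both peptides (limma adjusted p = 0.516) and with no filter on low values (limma adjusted p = 0.0611). Without both libraries that stood apart, Il15ra gave 0.84 with a limma adjusted p of 0.0113.

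In the 7 libraries without those 2, 8 genes passed, 6 higher (0.0621% of 9659) and 2 lower (0.0207%). The higher genes were Il15ra, Fkbp5 (log2 fold change 1.49), Ston1 (1.09), Zbtb16 (0.73), Jade2 (0.64) and Abhd15 (0.60), and the lower ones H2-Ob (−1.37) and H2-DMb1 (−0.99). Zbtb16 averaged 0.607 RPKM over these 7 libraries and had met the filter of 1 RPKM over all 9 only through the peptide libraries where it was high, so its call is a description. With all 9 libraries the 7 besides Il15ra did not pass. At an unadjusted limma p under 0.05 the 7 remaining libraries gave 290 genes higher (3%) and 344 lower (3.56%). Over all genes and libraries the pooled differences were small: the median log2 fold change was −0.003, and 20 genes were higher and 14 lower by at least 1. At an unadjusted limma p under 0.05 there were 274 genes higher (2.84% of those tested) and 391 lower (4.05%), and these shares are the background for the lists of genes below. The 6 peptide libraries lay wholly above the vehicle libraries for 177 genes (1.83%) and wholly below for 215 (2.23%).

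Fkbp5 led the genes that were higher without passing the threshold. It encodes a co-chaperone of the glucocorticoid receptor and is itself a classical target of that receptor. Its level was 10.4, 8.80 and 10.3 RPKM with vehicle, 26.0, 42.4 and 22.8 with 7aaRGD, and 35.2, 61.8 and 35.4 with 7aaRAE. Every peptide library lay above every vehicle library, and the highest value in each peptide group was that of the library standing apart. The pooled log2 fold change was 1.75 (SE 0.224), with a limma adjusted p of 0.0863.

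The other genes named on this side were Ston1, an endocytic adaptor, at 1.08 to 1.59 RPKM with vehicle and 2.71 to 8.12 with peptide (log2 fold change 1.30), Rnf169 (0.82), Jade2 (0.73), Mlxip (0.66), Abhd15 (0.62), Runx1 (0.50), Tmem104 (0.44) and Bmf (0.35). Runx1 is a transcription factor of blood cell development and Bmf a pro-apoptotic member of the Bcl-2 family. Runx1 rested on a narrow spread, with vehicle between 13.3 and 15.7 RPKM and peptide between 19.5 and 22.5. None of these 8 passed, with limma adjusted p between 0.0863 and 0.199.

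**Figure D2:**
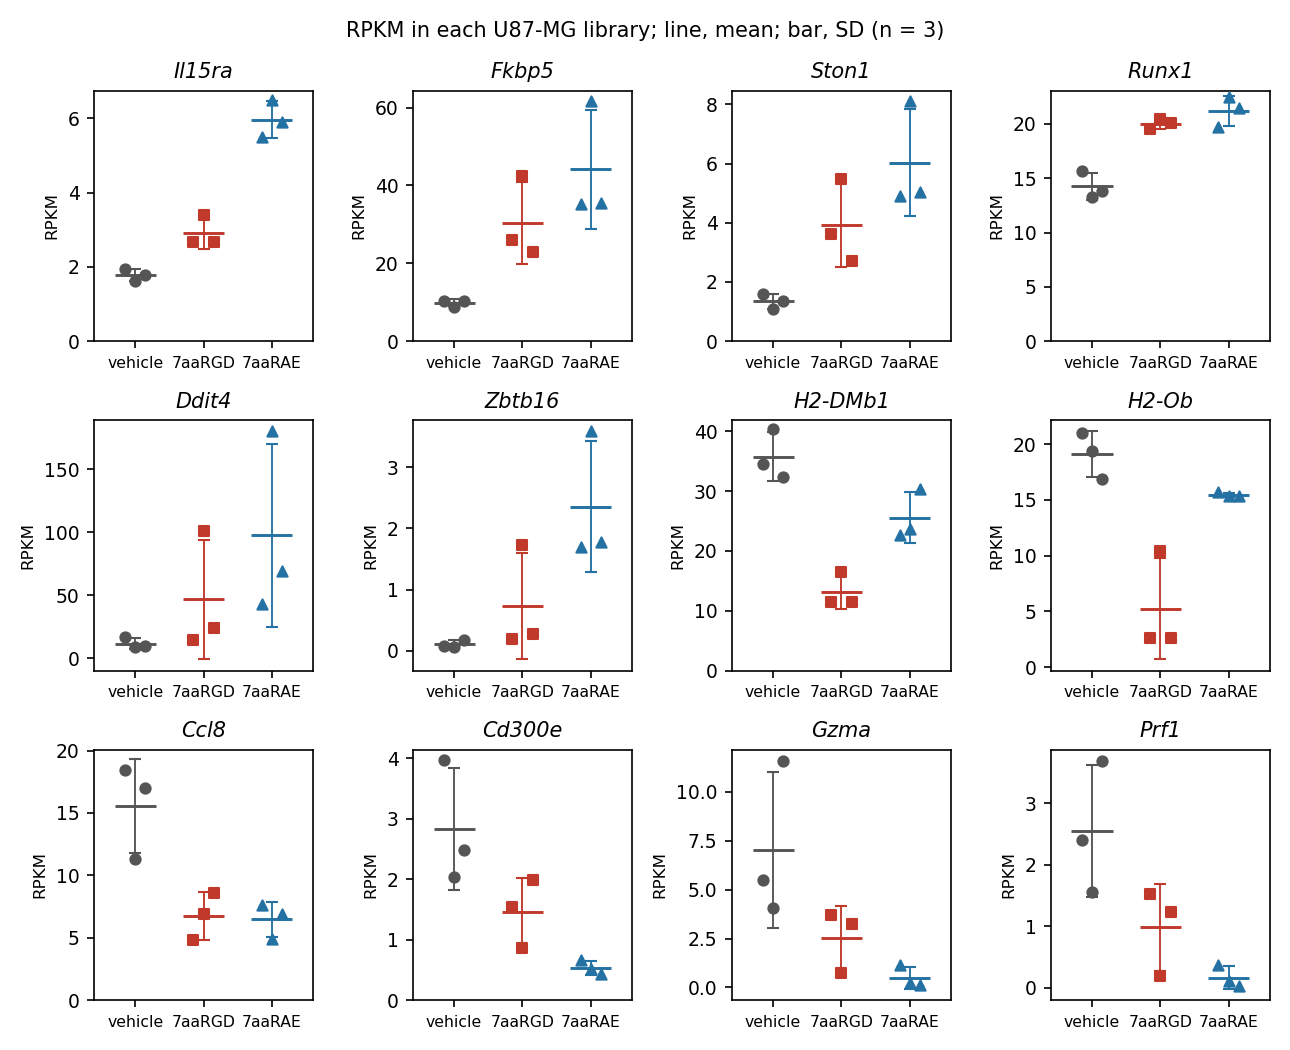
RPKM of 12 genes in each of the 9 U87-MG libraries, by group; points are libraries, lines the group means and bars the SD (n = 3). Il15ra, Fkbp5, Ston1 and Runx1 are higher in all 6 peptide libraries than in vehicle, H2-DMb1 and H2-Ob are lowest in 7aaRGD, and Gzma and Prf1 are lowest in 7aaRAE.

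Genes that glucocorticoids induce lay on the higher side. These steroid hormones act through a nuclear receptor that binds response elements in DNA. Of the 17 genes of the list, all tested, 9 were higher and 0 lower at an unadjusted limma p under 0.05, against 2.84% and 4.05% of all genes, and 16 had a fold change above 0, against 49.3% of all genes. The median log2 fold change was 0.69, against −0.003 over all genes. None of the 17 passed the adjusted threshold with all libraries. When the 2 libraries apart were left out the median was 0.36, 8 genes were higher and 0 lower at that unadjusted p, and Fkbp5 and Zbtb16 passed. Zbtb16 and Klf9 averaged under 1 RPKM with vehicle and were kept through the peptide libraries. Of the other 15 genes 7 were higher and 0 lower at that p with all libraries, with a median of 0.59.

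Per1, a circadian clock gene with glucocorticoid response elements, showed 10.3, 12.3 and 10.5 RPKM with vehicle, 13.3, 23.8 and 25.2 with 7aaRGD and 20.6, 30.1 and 33.1 with 7aaRAE. Its groups did not overlap, and its log2 fold change was 1.02 with an unadjusted limma p of 0.000832. Zbtb16, a transcriptional repressor, was nearly silent with vehicle (0.0857, 0.0595 and 0.181 RPKM), reached 0.188, 1.72 and 0.268 RPKM with 7aaRGD, and stood at 1.69, 3.58 and 1.78 with 7aaRAE. 7aaRGD 1 and 3 lay just above the vehicle range, and the higher 7aaRGD value was that of the library standing apart. Ddit4, an inhibitor of mTOR signalling, spread most widely. It was listed at 16.6, 8.89 and 9.83 RPKM with vehicle, 14.6, 101 and 24.3 with 7aaRGD, and 43.3, 180.0 and 69.5 with 7aaRAE, and 7aaRGD 1 overlapped the vehicle range. Tsc22d3, which encodes the glucocorticoid-induced leucine zipper protein, had a log2 fold change of 0.97, Klf9 of 1.02, and Il1r2, the decoy receptor for interleukin-1, of 1.26, each with overlapping groups. Sgk1, a kinase gene of the same list, was the 1 member with a negative value, at −0.38.

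The list was graded by library. Taking for each library the median difference from the vehicle mean over the 17 genes, 7aaRGD gave 0.05, 0.85 and 0.34, and 7aaRAE gave 0.50, 1.37 and 0.83, against −0.15 to 0.07 in the vehicle libraries. The highest of each peptide group was again the library standing apart. The median log2 fold change was 0.35 for 7aaRGD and 1.18 for 7aaRAE, both against the same 3 vehicle libraries.

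Immediate early genes, which are transcribed within minutes of a stimulus and also in response to tissue dissociation, lay on the higher side too. Of 23 genes tested 8 were higher and 0 lower at an unadjusted limma p under 0.05, and 22 had a fold change above 0, with a median of 0.35. Myc, a growth-promoting transcription factor, lay at 25.9, 21.9 and 23.03 RPKM with vehicle, 30.2, 50.3 and 30.3 with 7aaRGD and 35.8, 45.9 and 39.4 with 7aaRAE, without overlap and with a log2 fold change of 0.66. Ier3 gave 0.84, also without overlap, and Egr2 0.65. Fos, the most abundant of them, had 433 to 657 RPKM with vehicle and 557 to 936 with peptide, which overlap. None passed the adjusted threshold. The median was 0.41 without the 2 libraries apart, and 12 genes were higher at that unadjusted p, so the difference was not smaller without them.

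The Kruppel-like factors, zinc finger transcription factors of myeloid cells, showed 5 of 11 genes higher and 0 lower at an unadjusted limma p under 0.05, with a median of 0.42 (0.29 without the 2 libraries apart, and 0.37 with all libraries over the 10 genes other than Klf9). Klf13 was 16.8 to 21.5 RPKM with vehicle and 25.3 to 59.5 with peptide, a log2 fold change of 0.95 without overlap. Klf4, which is linked to monocyte differentiation, gave 1.13 with overlapping groups, and its highest values, 38.7 and 63.6 RPKM, were those of the 2 libraries apart. Klf2, the most abundant, gave 0.32 and did not reach that p.

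Genes of antigen presentation by major histocompatibility complex (MHC) class II lay on the lower side. Class II molecules display peptides from engulfed proteins to CD4+ T cells, and H2-DM and H2-O respectively promote and restrain the loading of those peptides. Their promoters share an inverted CCAAT box (ATTGG), the Y box. It was searched on both strands in the 250 bases before the RefSeq start. Of the 8 promoters that RefSeq holds for 7 of these genes, 7 had it, compared with 33.8% of all 32851. The 8 count H2-DMa more than once and include none for H2-Ab1, Cd74 or Ciita. The windows of H2-DMa and H2-DMb2 lie past the start of the annotated gene. Before that start, only the windows of H2-Aa, H2-Eb1 and H2-Ob held a match. The promoters of H2-Ob and H2-Eb1 are shown as examples that hold the box, with the ATTGG or CCAAT letters in capitals. Both genes were lower at an unadjusted limma p under 0.05. The 131 bases of the H2-DMb1 window that lie before its annotated gene held no match, and neither did the 211 such bases of H2-Oa. They are from build GRCm38.p6 and credited to RefSeq. The H2-Ob stretch is chr17:34238655-34238902 on the plus strand, and the H2-Eb1 stretch is chr17:34305617-34305866 on the plus strand.
H2-Ob: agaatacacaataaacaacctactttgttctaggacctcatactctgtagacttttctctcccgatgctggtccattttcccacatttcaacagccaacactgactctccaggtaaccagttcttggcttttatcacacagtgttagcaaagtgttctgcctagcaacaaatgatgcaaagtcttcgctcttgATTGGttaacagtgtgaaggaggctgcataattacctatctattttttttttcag
H2-Eb1: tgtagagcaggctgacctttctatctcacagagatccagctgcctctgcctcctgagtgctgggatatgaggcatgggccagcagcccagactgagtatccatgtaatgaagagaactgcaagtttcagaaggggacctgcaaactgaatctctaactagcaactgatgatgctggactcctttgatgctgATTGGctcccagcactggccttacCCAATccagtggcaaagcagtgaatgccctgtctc

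All 10 class II genes tested had a fold change below 0, with a median of −0.34, and 4 were lower and 0 higher at an unadjusted limma p under 0.05. The 2 genes with the smallest p were those for H2-DM and H2-O beta chains. H2-DMb1 (chr17:34153072-34160230) lay at 34.5, 40.4 and 32.4 RPKM with vehicle, 11.5, 16.5 and 11.5 with 7aaRGD, and 22.6, 23.7 and 30.4 with 7aaRAE. Every peptide library was below every vehicle library, and the 7aaRGD libraries were the lowest. The pooled log2 fold change was −0.93 (SE 0.14; limma adjusted p = 0.0962), and −0.99 without the 2 libraries apart, where it passed with a limma adjusted p of 0.0394.

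H2-Ob (chr17:34238903-34254414), whose promoter is shown above, lay at 21.0, 19.4 and 16.9 RPKM with vehicle, 2.65, 10.5 and 2.61 with 7aaRGD, and 15.7, 15.3 and 15.4 with 7aaRAE. The 7aaRAE libraries sat just under the vehicle range, and 2 of the 7aaRGD libraries were far under it. Its pooled log2 fold change was −1.10 (SE 0.326; limma adjusted p = 0.559), and −1.37 without the 2 libraries apart, with a limma adjusted p of 0.0011. That fit left out 7aaRGD 2, the 7aaRGD library nearest to the vehicle range. For H2-DMa, which lies on the same chromosome and encodes the partner of H2-DMb1, the values went otherwise: 44.3, 44.6 and 37.4 RPKM with vehicle, 61.8, 31.5 and 66.4 with 7aaRGD, and 37.2, 19.7 and 30.3 with 7aaRAE, with overlap.

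Several class II genes had different levels with the 2 peptides, although none passed the adjusted threshold between them. Of the 10 genes, 5 were higher and 3 lower with 7aaRGD than with 7aaRAE at an unadjusted limma p under 0.05. Between the peptides 3.38% of all genes had that p in either direction. Cd74, the invariant chain, lay at 396, 433 and 394 RPKM with vehicle, 293, 298 and 616 with 7aaRGD and 200.1, 228 and 227 with 7aaRAE. H2-Ab1 gave 70.1, 89.0 and 72.1 RPKM with vehicle, 69.4, 59.7 and 171 with 7aaRGD, and 44.1, 45.4 and 44.6 with 7aaRAE. In both genes the 7aaRAE libraries lay below vehicle, while 7aaRGD 3 lay well above it. Ciita, the transactivator that switches class II genes on, lay at 1.79 to 2.19 RPKM with vehicle, at 1.27, 1.15 and 3.11 with 7aaRGD and at 0.837 to 1.02 with 7aaRAE, so that 7aaRGD 1 and 2 were below vehicle and 7aaRGD 3 above it. The summed level of the 10 genes was 764 to 863 RPKM with vehicle, 580 to 1173 with 7aaRGD and 439 to 495 with 7aaRAE. Their median log2 fold change was −0.19 for 7aaRGD and −0.59 for 7aaRAE against the same vehicle libraries.

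Class I genes and the peptide loading machinery, which serve CD8+ T cells and NK cells, were all on the lower side as well. All 21 had a fold change below 0, with a median of −0.35, and 8 were lower and 0 higher at an unadjusted limma p under 0.05. H2-M3, a non-classical class I gene, lay at 32.0, 28.5 and 26.4 RPKM with vehicle, 25.9, 23.01 and 21.5 with 7aaRGD and 23.3, 21.1 and 19.2 with 7aaRAE, without overlap, and its log2 fold change was −0.36. H2-K1 gave −0.67, with vehicle at 223 to 293 RPKM and peptide at 119 to 245. Psmb8, an immunoproteasome subunit, and Psme2, an activator of the proteasome, gave −0.41 and −0.48 without overlap. B2m, the light chain of class I, was the most abundant, at 1626 to 1747 RPKM with vehicle and 1117 to 1780 with peptide. Leaving out the 2 libraries apart gave a median of −0.20, with 7 lower and 0 higher at that p. The per-library medians were −0.23, −0.48 and −0.31 with 7aaRGD and 0.015, −0.70 and −0.24 with 7aaRAE. Vehicle ran from −0.06 to 0.03, so 7aaRAE 1 lay inside its range.

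Genes of cytotoxic lymphocytes were detected at low levels. Gzma and Gzmb encode granzymes and Prf1 perforin, the proteins with which NK cells and cytotoxic T cells kill. Gzma lay at 5.50, 4.07 and 11.6 RPKM with vehicle, 3.68, 0.724 and 3.24 with 7aaRGD, and 1.13, 0.240 and 0.104 with 7aaRAE. All 6 peptide libraries were below vehicle, and the log2 fold change of −1.79 had an unadjusted limma p of 0.00124. Prf1 lay at 2.40, 1.56 and 3.69 RPKM with vehicle, 1.53, 0.191 and 1.23 with 7aaRGD and 0.372, 0.108 and 0.0247 with 7aaRAE, a log2 fold change of −1.22 with a limma adjusted p of 0.384. Gzmb had the same log2 fold change of −1.22 but overlapped, with 1.25 to 4.06 RPKM with vehicle and 0.0870 to 1.30 with peptide.

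These 3 genes were the only NK cell markers of 8 that passed the filter on low values, and Prf1 and Gzmb, which averaged under 1 RPKM with peptide, did so only through the vehicle libraries where they were high. Their differences are therefore a description, and no median is given for the list. The other 5 (Ncr1, Nkg7, Klrb1c, Klrk1 and Eomes) were under a mean of 1 RPKM and were not tested. Ncr1, the activating receptor that defines NK cells, lay at 0.924, 0.654 and 1.80 RPKM with vehicle, 0.500, 0.235 and 0.311 with 7aaRGD, and 0.0754, 0.178 and 0 with 7aaRAE. The 8 markers summed to 8.73 to 24.9 RPKM with vehicle, 1.74 to 8.35 with 7aaRGD and 0.419 to 2.54 with 7aaRAE. The vehicle range lay above both peptide ranges, which overlapped each other. In these bulk samples fewer NK cells and less RNA per NK cell cannot be told apart. The 8 T cell markers, all under the filter, summed to 0.912 to 1.56 RPKM with vehicle, 0.647 to 0.928 with 7aaRGD and 0.390 to 0.572 with 7aaRAE. Most of each sum came from Cd4 and Lck. Cd3e, Cd3g, Cd8a, Cd8b1 and Trac reached at most 0.0943 RPKM in any library, so no change in T cells is read from these sums. The part of these lymphocytes in the other results was not tested.

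Genes of DNA replication lay on the lower side by small steps. Of 32 tested, 16 were lower and 0 higher at an unadjusted limma p under 0.05, against 4.05% and 2.84% of all genes. The median log2 fold change was −0.38. Pola1, Pole and Pole2 averaged under 1 RPKM with peptide and were kept through the vehicle libraries. Of the other 29 genes 15 were lower and 0 higher at that p, with a median of −0.38. Each peptide against vehicle gave 13 of the 32 lower with 7aaRGD (median −0.465) and 4 with 7aaRAE (median −0.335). Over all genes 3.77% and 7.72% had that p in either direction. The per-library medians were −0.13, −0.52 and −0.55 with 7aaRGD and −0.23, −0.64 and −0.09 with 7aaRAE. Vehicle ran from −0.20 to 0.14, so 7aaRGD 1 and 7aaRAE 3 lay inside its range. Rfc3, a subunit of the clamp loader, lay at 2.99, 3.26 and 3.53 RPKM with vehicle, 2.19, 1.99 and 2.05 with 7aaRGD, and 2.61, 2.46 and 2.89 with 7aaRAE, without overlap. Mcm5, a subunit of the replicative helicase, lay at 13.1 to 17.8 RPKM with vehicle, but at 5.09 and 3.88 in the 2 libraries apart and 6.48 to 15.1 in the other peptide libraries. Pcna, the sliding clamp, gave −0.31 with overlap. In the pooled contrast without the 2 libraries apart 6 of the 32 were lower at that p and the median was −0.29. Of the mitosis genes, 1 of 27 was lower and 0 higher at that p, with a median of −0.37. When the 2 libraries apart were left out, 4 were lower and the median was −0.21. Kif4, Kif23 and Hmmr averaged under 1 RPKM with peptide and were kept through the vehicle libraries. With all libraries the other 24 had 1 lower, 0 higher and a median of −0.40. Mki67, the common marker of cycling cells, lay at 4.60 to 5.30 RPKM with vehicle and 1.87 to 5.29 with peptide.

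**Figure D3:**
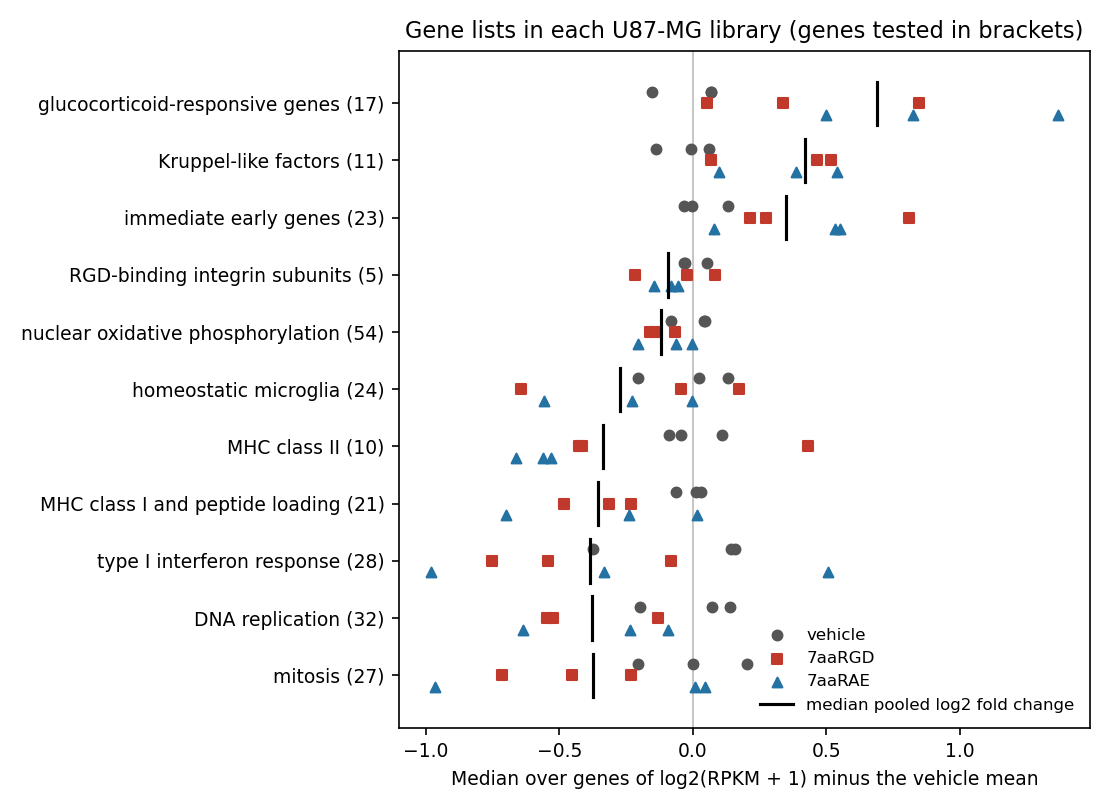
Median difference from the vehicle mean in log2(RPKM + 1) over the tested genes of 11 lists, for each library (circles vehicle, squares 7aaRGD, triangles 7aaRAE), with a black line at the median pooled log2 fold change. Glucocorticoid-responsive genes lie to the right of vehicle in 5 of the 6 peptide libraries.

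Interferon-stimulated genes depended on the library. The 28 tested genes of the type I interferon response had a median of −0.38, but 1 was lower and 0 were higher at an unadjusted limma p under 0.05, and without the 2 libraries apart the median was −0.07. The per-library medians ran from −0.75 to −0.08 with 7aaRGD and from −0.98 to 0.51 with 7aaRAE, on both sides of the vehicle range of −0.38 to 0.16. The interferon-gamma-induced GTPases gave 0 lower and 0 higher of 8 at that p, with a median of −0.29, and of −0.15 without those libraries. Gbp9 averaged under 1 RPKM with peptide and was kept through the vehicle libraries. With all libraries the other 7 had 0 lower, 0 higher and a median of −0.33.

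Markers of the sorted cell types were compared in the same way. The 24 homeostatic microglia genes had a median of −0.27 with 1 higher and 1 lower at an unadjusted limma p under 0.05, and a median of −0.03 without the 2 libraries apart. Among microglial markers Fcrls, an Fc receptor-like gene, was lower without overlap, at 361 to 391 RPKM with vehicle and 159 to 306 with peptide (log2 fold change −0.71), whereas Tmem119 lay at 1182 to 1619 RPKM with vehicle and 653 to 1677 with peptide. P2ry12, the purinergic receptor of surveying microglia, gave −0.30 with overlap. The 8 microglial markers summed to 8369 to 10310 RPKM with vehicle, 7215 to 8806 with 7aaRAE and 6498 to 10560 with 7aaRGD, where the 2 lowest of all 9 sums were those of the libraries apart. The 8 monocyte and macrophage markers summed to 1627 to 2769 RPKM with vehicle, 1524, 4295 and 2911 with 7aaRGD, and 1447, 2737 and 1872 with 7aaRAE, so that 7aaRGD 2 and 3 lay above the vehicle range. Of these 8 genes 0 were higher and 1 lower at that p, with a median of −0.16 (−0.28 without the 2 libraries apart). The median was 0.19 for 7aaRGD and −0.49 for 7aaRAE. Vcan and Ly6c2 averaged under 1 RPKM with peptide and were kept through the vehicle libraries. The other 6 had 0 higher, 0 lower and a median of 0.03. The part of this mix of cells in the results above was not tested.

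Of 9 neutrophil genes tested, Ltf, Camp and Retnlg averaged under 1 RPKM with vehicle and were kept through the peptide libraries. The other 6 had 0 higher and 0 lower at an unadjusted limma p under 0.05, with a median of 0.31. The highest summed level was that of 1 library. The sum was 51.6 to 85.8 RPKM with vehicle, 350 in 7aaRGD 3, and 26.7 to 97.1 in the other 5 peptide libraries. Retnlg lay at 0.674 to 1.06 RPKM with vehicle and 1.07 to 6.53 with peptide.

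The receptors that the RGD motif addresses were described apart from the pooled choice of genes. Of the 9 integrin subunits on the list 5 were tested, with 1 higher and 1 lower at an unadjusted limma p under 0.05 and a median of −0.09, against 1 higher, 0 lower and a median of 0.003 without the 2 libraries apart. Itga5, the alpha chain of the fibronectin receptor, lay at 15.2, 16.1 and 16.9 RPKM with vehicle, 18.0, 23.6 and 24.3 with 7aaRGD and 19.4, 22.8 and 18.5 with 7aaRAE, without overlap (log2 fold change 0.36, limma adjusted p = 0.558). Itgb3 gave −0.40 with overlap. Itgb5, the most abundant, was 688 to 789 RPKM with vehicle and 523 to 819 with peptide. Itgav and Itgb1 gave −0.09 and 0.02. Spp1, which encodes the RGD ligand osteopontin, lay at 1317 to 1831 RPKM with vehicle and 1242 to 2124 with peptide, a log2 fold change of 0.19 with an unadjusted limma p of 0.319.

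Beside H2-DMb1 and Prf1, 8 genes were named on the lower side, and none of them passed. Ccl8, a chemokine that attracts monocytes, lay at 18.4, 11.3 and 17.0 RPKM with vehicle, 4.79, 6.91 and 8.62 with 7aaRGD, and 7.59, 4.91 and 6.92 with 7aaRAE. It was lower to a like degree with both peptides, and the pooled log2 fold change was −1.12 (SE 0.201; limma adjusted p = 0.253). Cd300e, an activating receptor of monocytes, lay at 3.97, 2.04 and 2.48 RPKM with vehicle, 1.54, 0.869 and 1.99 with 7aaRGD, and 0.665, 0.514 and 0.428 with 7aaRAE. Cd300e averaged 0.9999 RPKM with peptide and met the filter through the vehicle libraries where it was high. Its difference is therefore a description. Treml4 and Adgre4, both receptors of circulating monocytes, gave −1.26 and −1.15, and Cd36, the scavenger receptor, −0.69. The remaining ones were Rapsn at −0.89, Hacd4 at −0.40 and Pgap2 at −0.38. The limma adjusted p of these 8 lay between 0.253 and 0.384. They were picked among genes whose peptide libraries all lay below vehicle, so that separation is no further evidence. Over all genes tested, 215 (2.23%) were separated in that way.

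Lists that the study chose for 7aaRGD on these same 7aaRGD and vehicle libraries are not independent evidence of a direction, and are given with the values of both peptides. The 9 genes it shows for myeloid cell differentiation had 8 higher and 0 lower at an unadjusted limma p under 0.05, with a median log2 fold change of 0.61 for 7aaRGD and 0.67 for 7aaRAE. The 7 genes for migration and response to stimulus had 6 higher and 0 lower, with 0.63 and 0.70. Nfkbiz, a nuclear regulator of NF-kB, lay at 18.3 to 27.6 RPKM with vehicle, 32.5 to 49.7 with 7aaRGD and 28.4 to 49.7 with 7aaRAE. Osm, the cytokine oncostatin M, lay at 25.5 to 28.5 RPKM with vehicle, 28.7 to 52.8 with 7aaRGD and 39.1 to 49.0 with 7aaRAE. Trem1, an activating receptor of neutrophils and monocytes, gave a log2 fold change of 0.96 for 7aaRGD and 0.99 for 7aaRAE.

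For antigen processing the 6 genes shown had 4 lower and 0 higher at that p, with medians of −0.65 for 7aaRGD and −0.38 for 7aaRAE. For DNA replication 4 of 5 were lower (2 of 5 without the 2 libraries apart), with −0.61 and −0.43, and for cell killing 1 of 5, with −0.35 and −0.23. For cytokine production 3 of 5 were higher, with 0.40 and 0.32. Ppfia4 departed from this. It lay at 2.48 to 3.91 RPKM with vehicle and 67.7, 43.3 and 12.8 with 7aaRGD, but at 3.07, 3.57 and 23.6 with 7aaRAE.

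The peptides were also set against each other directly, which was the 1 pair compared. No gene passed in either direction (0% higher and 0% lower), and 326 of 9659 (3.38%) had an unadjusted limma p under 0.05. The smallest adjusted p was 0.166, for Il15ra. That gene was lower with 7aaRGD than with 7aaRAE by 0.83 on the log2 scale (95% interval −1.06 to −0.60). For 9314 genes (96.4%) the 95% interval of the difference lay within 1 log2 unit of 0 on both sides, and the median half-width was 0.26. For the other genes these samples leave differences of more than that size possible. The 1 added before the log narrows the intervals of genes with low values, so larger relative differences in RPKM stay possible for those too. Without the 2 libraries apart 2 genes passed, both lower with 7aaRGD (0.0207%, with 0% higher): H2-Ob by −2.19 on the log2 scale (95% interval −2.43 to −1.94; limma adjusted p = 0.000497) and Zbtb16 by −1.16 (95% interval −1.41 to −0.90; limma adjusted p = 0.0388), the gene that entered the test through its high peptide values. This fit kept only libraries 1 and 3 of each peptide and was chosen after seeing the data. For H2-Ob it left out 7aaRGD 2, at 10.5 RPKM against 2.65 and 2.61 in the other 7aaRGD libraries. The narrow interval for H2-Ob does not cover that spread.

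The next 4 genes by p between the peptides all had a limma adjusted p of 1.0. H2-DMb1 was lower with 7aaRGD by 0.92 on the log2 scale (95% interval −1.28 to −0.55). S100a4, a calcium-binding protein of motile cells, was 8.46, 6.60 and 14.3 RPKM with 7aaRGD and 3.55, 3.94 and 3.00 with 7aaRAE, against 8.91 to 11.5 with vehicle. Slc37a2, a sugar phosphate transporter, was 31.0 to 32.8 RPKM with 7aaRGD, 24.9 to 25.3 with 7aaRAE and 32.3 to 35.0 with vehicle. Zfp3 was 2.32 to 2.78 RPKM with 7aaRGD and 1.48 to 1.76 with 7aaRAE. In each of these 3 the 7aaRAE libraries were the group that lay apart from vehicle.

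Against vehicle on its own, 7aaRGD gave 0 genes past the threshold (0% higher, 0% lower, with 364 at an unadjusted limma p under 0.05, 3.77%), and 7aaRAE gave 1, Il15ra, which was higher (0.0104%, with 0% lower and 746 at that unadjusted p, 7.72%). Both contrasts share the 3 vehicle libraries. Without the 2 libraries apart 7aaRGD gave 4 genes, Fkbp5 and Jade2 higher (0.0207%) and H2-Ob and H2-DMb1 lower (0.0207%), and 7aaRAE gave 11, of which 9 were higher (0.0932%) and 2 lower (0.0207%). The higher ones with 7aaRAE included Fkbp5 (log2 fold change 1.75), Il15ra (1.27), Zbtb16 (1.30) and Ston1 (1.36), and the lower ones Adgre4 (−1.52). Adgre4 averaged 0.649 RPKM over all the 7aaRAE libraries, under the filter of 1 RPKM that it met through the other groups. With all 9 libraries, the log2 fold change of Il15ra was 0.49 with 7aaRGD (limma adjusted p = 0.941) and 1.33 with 7aaRAE (limma adjusted p = 0.00332). For Fkbp5 it was 1.49 and 2.01, with 95% intervals for the difference between the peptides of −1.11 to 0.06. For Ccl8 it was −1.10 and −1.14, with an interval of −0.48 to 0.57, and for Mlxip 0.67 and 0.64, with an interval of −0.26 to 0.33.

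**Figure D4:**
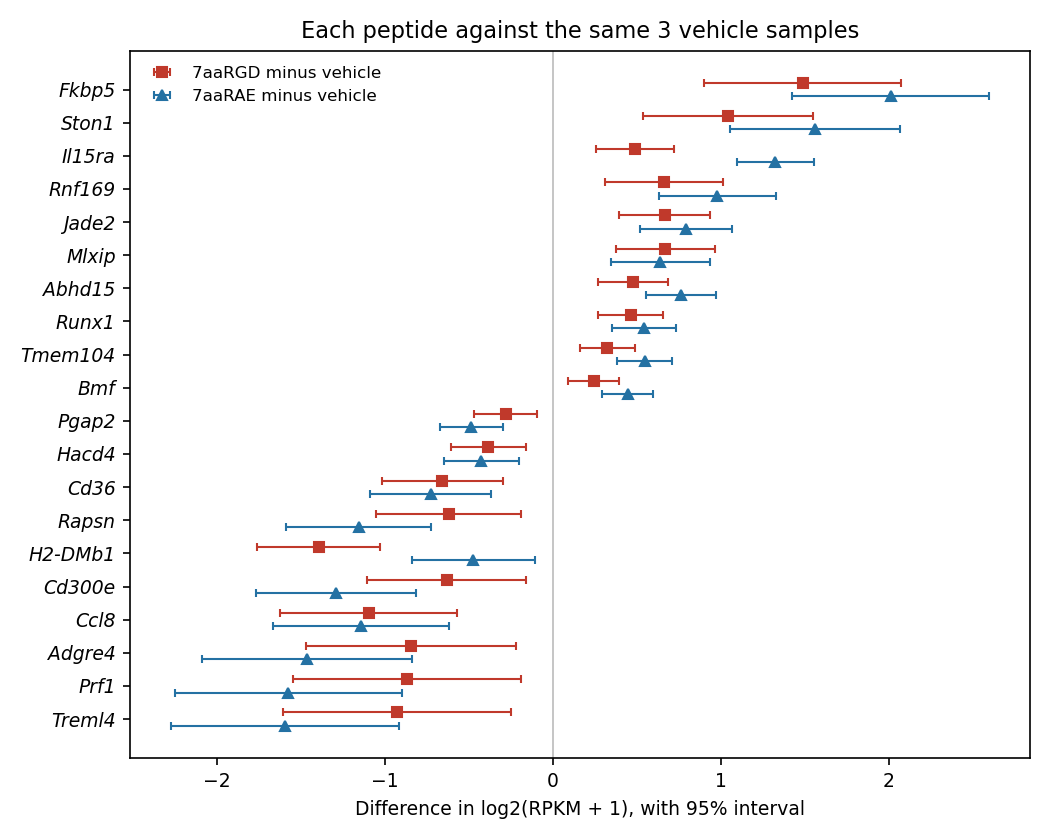
Difference from vehicle in log2(RPKM + 1) for Il15ra and 19 genes among those with the smallest p of the pooled contrast on either side, for 7aaRGD (squares) and 7aaRAE (triangles), with 95% intervals from limma; both share the same 3 vehicle libraries. The members were chosen for the pooled difference, and Il15ra and H2-DMb1 show the widest gap between the peptides.

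The same pooled contrast in GL261 gliomas of C57BL/6 mice at 21 DPI is given side by side only, since the 2 tables were normalized separately. There 0 of 9436 genes passed (0% higher and 0% lower), and 1162 had an unadjusted limma p under 0.05 (12.3%), 720 of them higher (7.63%). In GL261, Il15ra had a log2 fold change of 0.12, Fkbp5 of −0.54 and H2-DMb1 of −0.05, against 0.91, 1.75 and −0.93 in U87-MG. Ccl8 was −3.74 in GL261 and −1.12 in U87-MG. Among the lists, the median for glucocorticoid-responsive genes was −0.12 in GL261 and 0.69 in U87-MG, that for MHC class II −0.09 and −0.34, and that for DNA replication 0.002 and −0.38. Differences between the tumor models were not tested.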

How the data were processed

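Gene expression was measured by RNA sequencing of CD11b+ cells. Per the labels and the study's methods, the authors used Trimmomatic for trimming, STAR for alignment to mm10 and HTSeq 0.11.1 for stranded counting on genes. The deposited unit, RPKM with 2 added, was inferred from the values: silent genes stood at exactly 2, and what remained after taking off this constant, weighted by exonic length, added up to almost equal totals in all samples. Some values lay under the constant, so the authors had altered them after normalization by a step not given in the sources used here. Read counts cannot be recovered, count tests were not used and depth is unknown.

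The constant was subtracted, negative remainders were set to 0, and 98.7% of the 54513 symbols were found in the annotation. Protein-coding genes averaging 1 RPKM or more were fitted on the log2(RPKM + 1) scale by limma 3.58.1 under R 4.3.3 (Python 3.11.15 for the rest): a mean for each of 3 groups, eBayes with a trend, two-sided tests, Benjamini-Hochberg adjustment over all genes and a threshold of 0.05. The plan had assumed normalized counts, and the log scale was kept. The test was tried on simulated data. P-values measure the spread between samples that each pool 2 animals. Positions are on mm10.

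Named genes were those past the threshold without overlap between groups or, where fewer than 5 passed, the 10 with the smallest p among genes without overlap. Added to these were the 2 members of each list with the smallest p and its most abundant member, genes the study shows for 7aaRGD, integrin subunits and the 5 with the smallest p between the peptides; genes outside this rule were chosen after their values were seen, and some that the rule named are not reported here. The members and lists were chosen with earlier results of these data known. For GL261, the 3 columns of mice without tumor were not used, and naive nude mice were not analysed here. Alternatives covered pseudocounts, filters, scaling, sample weights, other fits and each library left out; the sets without 2 libraries and with a term for values under the constant were chosen after seeing the data.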

Additional observations from a re-analysis of the deposited data

Results flagged for a closer look

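Among the 87 values tested over the 6 peptide samples, 6 had a lowest or highest sample set off from the rest by more than Dixon's limit, where chance sets off about 1 in 20. Class II genes accounted for 3 of them, each highest in 7aaRGD 3: Cd74 at 615.5 RPKM, H2-Ab1 at 170.9 RPKM and Ciita at 3.105 RPKM, with gaps of 0.647, 0.667 and 0.735 of the range. The summed neutrophil markers were set off in the same library, at 350.2 RPKM. The summed erythroid markers were set off in 7aaRAE 1, at 149.4 RPKM against 9.33 to 14.9 in the other peptide samples. Jade2 was set off in 7aaRAE 2, one of the libraries apart, at 31.51 RPKM. Of 64 genes compared between the tumor models, 1 had all peptide samples on opposite sides of vehicle: Treml4, a receptor of circulating monocytes, had a log2 fold change of −1.26 in U87-MG and 0.327 in GL261, and this difference was not tested.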

How the results depend on the processing

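The pooled contrast gave 1 gene past the threshold as described, and the count depended on the processing. It was 0 with no filter on low values, 0 with a mean of at least 5 RPKM, 0 with a log2 fold change of at least 1, 0 with 1 mean for both peptides, 0 with a term for libraries with few values under the constant, 8 without the 2 libraries apart and 67 (43 higher, 24 lower) with sample weights. The weights ranged from 0.227 to 7.13 and their estimation did not converge. Il15ra averaged 3.55 RPKM, so the filter of 5 RPKM removed it before testing. The 0 at that filter, here and for 7aaRAE below, is therefore no test of its call. With 1 library left out the count ran from 0 to 4: it was 4 without 7aaRGD 2, 2 without 7aaRGD 3 or 7aaRAE 2, and 0 without any single one of the other 6. At an unadjusted limma p under 0.05 these fits gave between 326 and 968 genes. For 7aaRGD against vehicle the count of 0 became 488 with weights and 4 without the 2 libraries, and ran from 0 to 2 with 1 library left out (2 without 7aaRGD 2). For 7aaRAE against vehicle the count of 1 became 0 with a mean of at least 5 RPKM, 110 with weights, 32 with only the 2 groups fitted and 11 without the 2 libraries, and ran from 1 to 23 (23 without 7aaRGD 2, 5 without 7aaRGD 3). Between the peptides the count of 0 became 2205 with weights and 2 without the 2 libraries, and ran from 0 to 3 (3 without 7aaRGD 2). In GL261 the count of 0 became 5 with no filter and ran from 0 to 60 (60 without vehicle 3). The causes were not tested. Il15ra kept its direction in all 22 alternatives and passed in 12, with a log2 fold change of 0.46 to 1.18 and a limma adjusted p of 0.00101 to 0.516. The 12 include the fit with sample weights that did not converge, which gave the lowest of these p. Without the 2 libraries apart the limma adjusted p was 0.0113. TMM or median-of-ratios factors moved no library by more than 0.0342 on the log2 scale. Of the values for list medians, 15 moved by more than the SD of the library medians over the 6 peptide libraries, and 1324 did not. That SD takes in the 2 libraries apart and any difference between the peptides, so it is a wide limit. The type I interferon median counted as not moved, though it went from −0.38 to −0.07 without those 2 libraries. Of the values for single genes, 125 moved, 47 newly passed, 10 no longer passed and 3988 stayed. No paired analysis was run for U87-MG because its columns carry no replicate number that ties them to samples. The low share of values under the constant fell on column 3 of every group, and the 2 libraries apart were both column 2. Whether the position of a column pairs the samples was not tested. In GL261 the numbers did not pair the samples (1 of 9 correlations over 0.1), and the replicate block left the count at 0. With 3 vehicle samples, an unknown depth and pools of 2 animals, small differences were not detectable.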

Other observations

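Other lists of genes moved little in the pooled U87-MG contrast. Genes of nuclear oxidative phosphorylation, the respiratory chain and ATP synthase, were below 0 for 47 of 54, with a median log2 fold change of −0.12 and 5 lower and 0 higher at an unadjusted limma p under 0.05. Atp5k, an ATP synthase subunit, lay at 49.5, 54.5 and 55.3 RPKM with vehicle and 26.8 to 43.0 with peptide. Cytosolic ribosomal protein genes were below 0 for 66 of 77, with a median of −0.06 and 1 lower (−0.10 and 4 lower without the 2 libraries apart), and mitochondrial ribosomal protein genes had 4 of 71 lower. Proteasome subunits had 0 of 31 on either side.

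CC chemokines were divided, with 4 of 10 higher and 1, Ccl8, lower. Ccl4, a chemokine that attracts monocytes and lymphocytes, lay at 140.1 to 163 RPKM with vehicle and 175 to 234 with peptide, without overlap, and Ccl3 gave a log2 fold change of 0.68 with overlap. Of the circadian clock genes 4 of 14 were higher and 0 lower (2 higher without the 2 libraries apart), led by Per1, which is also in the glucocorticoid list. Cry2, a clock repressor, lay at 1.27 to 1.43 RPKM with vehicle and 1.52 to 2.26 with peptide. Tlr7, the receptor for single-stranded RNA, lay at 64.8 to 66.5 RPKM with vehicle and 75.8 to 177 with peptide, and the highest peptide values, 114 and 177, were those of the 2 libraries apart.

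Border-associated macrophage markers had 2 of 8 lower and 0 higher, with a median of −0.09, and without the 2 libraries apart 5 of 8 were lower and the median was −0.42. Mrc1, the mannose receptor, lay at 31.4 to 34.9 RPKM with vehicle and 16.4 to 53.3 with peptide, where the highest value was that of 7aaRGD 2. Cytosolic heat shock chaperones had 1 of 23 higher and a median of 0 in U87-MG (0.07 without the 2 libraries apart). In GL261, 13 of 20 were higher with a median of 0.35, against 7.63% higher and a median of 0.014 over all genes there. In U87-MG Hspa4l and Hspb1 averaged under 1 RPKM with vehicle, and the other 21 had 1 higher and a median of 0. None of the genes in these lists passed the adjusted threshold.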
